A study of Homo sapiens with 12 samples.

Results

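CAL27 cells, an established HPV-negative line of head and neck squamous cell carcinoma (HNSCC), were compared with and without induction of an shRNA against MUC1, over all genes and with the interferon, NOTCH and cell cycle genes set aside. The comparison holds 6 of the 12 libraries of the series, all CAL27 libraries. The 3 libraries of the vehicle group came from CAL27/tet-MUC1shRNA cells given 0.1% DMSO, and the 3 of the DOX group from the same cells given 500 ng/mL doxycycline (DOX), both for 7 days. All 6 therefore carry the same construct, in which MUC1shRNA#1 sits in the pLKO-tet-puro vector and is transcribed when DOX is present, and vector-transduced cells had been selected in puromycin. The other 6 libraries are HSC3 cells, a second HPV-negative HNSCC line, treated in the same way, and are used only to compare the leading genes. Whether the CAL27 cells were 1 clone or a pool is not given in the sources used here. DOX-treated cells with a control shRNA were not analysed here, so effects of MUC1 silencing, of DOX and of the shRNA cannot be told apart.

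The paper names TruSeq Stranded mRNA, a kit that selects poly(A) RNA, for the libraries. The authors deposited counts per gene symbol, from 92866845 to 126328662 per library. Levels are CPM, the counts of a gene scaled to a common library size, after TMM normalization, and levels between genes are compared as TPM, which also divide by exon length. Of 39368 symbols, 19239 had enough counts to be tested with edgeR's quasi-likelihood test, the source of every adjusted p below, with Benjamini-Hochberg adjustment over all 19239. Called genes are those with an adjusted p below 0.05 and a change of more than 2-fold, and "rose" or "fell" is used of genes with an adjusted p under 0.05. The first principal component, with 57.4% of the variance, separated vehicle from DOX, and the second, with 14.5%, spread the DOX libraries. The DOX libraries were not alike in the size of the change. The libraries are named in the order of the table's columns. The first was nearest to vehicle for 11 of the 12 leading falls given below and for 53.3% of the genes called lower. Among the rises it was nearest for 7 of the 12 leading ones and for 47.2% of the genes called higher.

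MUC1 encodes a transmembrane mucin that is cleaved into an extracellular and a transmembrane subunit, and the latter, MUC1-C, takes part in signalling. Stratified squamous epithelium is built on basal cells that carry KRT5 and KRT14 under the factor TP63, and cells that leave the basal layer switch to suprabasal keratins, while simple epithelia use KRT8 and KRT18. FOSL1 is a subunit of AP-1, a dimeric factor that is fed by the EGF receptor and ERK and acts on many protease and cytoskeleton genes.

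MUC1 (chr1:155185824-155192916, minus strand, GRCh38) was at 63.9, 58.9 and 59.9 CPM in the vehicle libraries and at 3.19, 3.06 and 3.58 CPM in the DOX libraries. The groups did not overlap, and the log2 fold change was -4.21 (standard error 0.067, edgeR adjusted p = 1.6e-19). The squamous identity of the cells was checked on 10 markers, whose summed level was 7279 to 7686 TPM with vehicle and 3477 to 3815 TPM with DOX. KRT5 and KRT14 were the most abundant of them with vehicle, and 9 of the 10 fell while SFN, at 672 and 676 mean TPM, did not pass the test. Of 15 markers of fibroblasts, endothelium and blood cells, 7 had enough counts to be tested and 4 of these fell, and the summed level of all 15 was 17.4 to 18.3 TPM with vehicle and 11.2 to 12.5 TPM with DOX. COL3A1 had no count in any library, and the largest share of the sum was CDH5, an endothelial cadherin with 880 to 2048 counts per library. Their part in the results was not tested.

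With DOX, 984 genes (5.11% of those tested) were called lower and 252 (1.31%) higher, 6.42% in all. Of these, 886 lower and 246 higher lay outside the interferon, NOTCH and cell cycle lists. Without the fold threshold the directions were nearly even, with 4203 genes (21.8%) that fell and 4351 (22.6%) that rose. The imbalance of the calls thus lay in the size of the changes, and it stood at every level of expression. Among genes at 64 CPM or more, 69 of 3642 were called lower and 17 higher, and among those under 1 CPM, 476 of 5706 were called lower and 117 higher. The share with an adjusted p under 0.05 climbed with level, from 14.7% under 1 CPM to 59.3% at 8 to 64 CPM and 69.0% at 64 CPM or more. Counts of rises and falls in the lists below are to be read beside these shares. Protein-coding genes made up 823 of the genes called lower and 174 of those called higher, and long noncoding RNAs 108 and 42. In the bulk libraries, fewer cells of a type and less RNA per cell cannot be told apart.

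**Figure D1:**
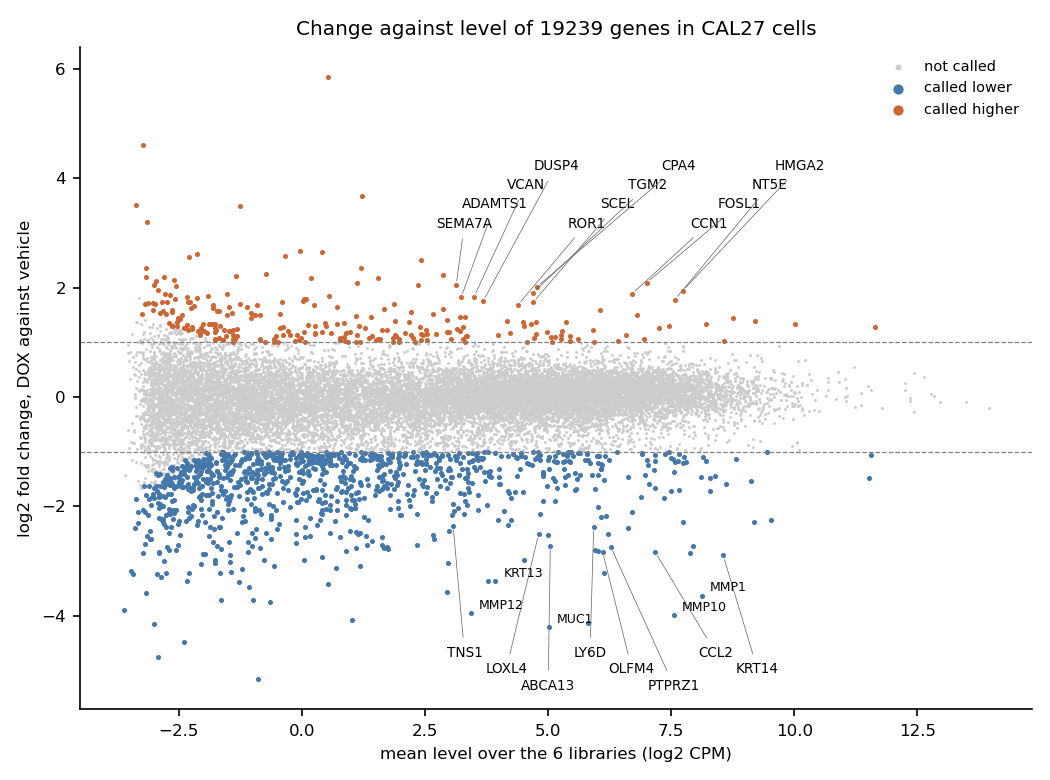
Each point is 1 of the 19239 tested genes, with its mean level over the 6 libraries (log2 CPM) on the horizontal axis and the log2 fold change of DOX against vehicle on the vertical axis. Blue points are the 984 genes called lower, orange points the 252 called higher and grey points the rest, dashed lines mark a 2-fold change, and MUC1 with the 12 leading falls and 12 leading rises is named.

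The leading genes outside the 3 lists had to be called, to reach an average log2 CPM of 3 and to keep vehicle and DOX libraries apart, conditions met by 152 lower and 56 higher genes. Of all tested genes, 52.4% had groups that did not overlap. The leading falls were proteases of the matrix, keratins, secreted factors and proteins of the cell surface. The leading rises held the AP-1 subunit FOSL1, the chromatin protein HMGA2, surface, matrix and secreted proteins, transglutaminase and cornified envelope genes, and DUSP4, a feedback phosphatase of ERK signalling.

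The promoters of 4 of these 24 genes are shown first, since they hold the AP-1 motif TGANTCA, where N is any base. Only 12 of the 24 genes have a promoter in the RefSeq table (250 bases before the start site to 50 after it, GRCh38.p14), 6 in each direction, and 2 of the 6 on each side held the motif. The 150 bases before the start site are given 5′ to 3′ on the strand of the gene, with the motif in capitals. They are chr11:102780629-102780778 on the minus strand for MMP10, chr13:53028663-53028812 on the plus strand for OLFM4, chr7:130293011-130293160 on the plus strand for CPA4 and chr13:77535556-77535705 on the plus strand for SCEL.
MMP10: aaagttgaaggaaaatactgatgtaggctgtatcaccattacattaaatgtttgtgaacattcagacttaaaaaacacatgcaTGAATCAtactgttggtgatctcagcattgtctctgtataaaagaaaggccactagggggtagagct
OLFM4: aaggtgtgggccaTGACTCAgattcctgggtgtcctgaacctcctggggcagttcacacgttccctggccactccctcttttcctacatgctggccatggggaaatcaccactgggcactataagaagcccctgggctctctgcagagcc
CPA4: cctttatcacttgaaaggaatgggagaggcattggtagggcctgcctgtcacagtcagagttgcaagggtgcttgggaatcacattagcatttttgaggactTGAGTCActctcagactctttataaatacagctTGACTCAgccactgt
SCEL: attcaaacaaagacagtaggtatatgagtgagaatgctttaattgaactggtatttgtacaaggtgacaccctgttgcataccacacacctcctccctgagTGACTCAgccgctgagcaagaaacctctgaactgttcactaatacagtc
The motif reads the same on both strands. MMP10 and OLFM4 fell and CPA4 and SCEL rose, so the motif stood before genes of both directions. Over all tested genes with a promoter it was in 692 of 12820 (5.40%). It was in 69 of 658 promoters of genes called lower (10.5%) and in 18 of 156 of genes called higher (11.5%). The interferon response motif GAAA, 2 bases of any kind, GAAA, searched on both strands, was in 2.95% of the tested promoters, in 32 of 62 promoters of called interferon genes, in 26 of 590 (4.41%) of genes called lower outside the 3 lists and in 1 of 156 of genes called higher. Over all 27305 promoters of the RefSeq table, the AP-1 motif was in 7.76% and the interferon response motif in 3.65%. These are matches of letters in a short window, given with no test.

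MMP10, MMP12 and MMP1 had the 3 largest falls of the leading genes. MMP10, a stromelysin, was at 331, 374 and 354 CPM with vehicle and at 33.4, 20.6 and 13.4 CPM with DOX (log2 fold change -3.98, standard error 0.387, adjusted p = 0.0013). MMP1, the interstitial collagenase, went from 491, 507 and 543 CPM to 53.2, 41.1 and 30.3 CPM, a log2 fold change of -3.63 (standard error 0.245, adjusted p = 3.4e-04). MMP12, the macrophage elastase, went from 18.6, 20.8 and 20.5 CPM to 1.54, 1.25 and 1.09 CPM, a log2 fold change of -3.95 (standard error 0.104, adjusted p = 4.3e-16). In all of them the first DOX library was the highest of its group, and the spread among the DOX libraries, relative to their mean, was widest in MMP10. MMP13, another collagenase, was the most abundant, at 1559, 1414 and 1652 TPM with vehicle and 348, 321 and 293 TPM with DOX (log2 fold change -2.25, standard error 0.065, adjusted p = 1.2e-11). Summed over MMP1, MMP10, MMP12 and MMP13, the level fell from 2968 ± 173 TPM (SD, n = 3) to 422 ± 62.1 TPM (SD, n = 3), a 7.04-fold difference. Among 26 tested genes of plasminogen activation and matrix proteolysis, 13 fell and 9 rose, with a median log2 fold change of -0.26 against -0.01 over all genes. Of the members, 9 were called lower, all of them MMPs, and 3 were called higher. Among the latter were ADAMTS1, a protease of proteoglycans, and CPA4, a carboxypeptidase.

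Other leading falls were secreted or surface proteins. CCL2, a chemokine for monocytes, was at 255, 238 and 266 CPM with vehicle and at 44.6, 32.1 and 30.0 CPM with DOX (log2 fold change -2.83, standard error 0.184, adjusted p = 2.7e-04). OLFM4, a secreted glycoprotein known as a marker of intestinal stem cells, went from 122, 115 and 125 CPM to 21.8, 17.0 and 12.2 CPM (log2 fold change -2.83, standard error 0.235, adjusted p = 7.3e-04). PTPRZ1, a receptor tyrosine phosphatase, went from 130, 131 and 142 CPM to 23.2, 20.7 and 16.5 CPM (log2 fold change -2.74, standard error 0.135, adjusted p = 2.8e-05). In these 3 genes every vehicle library was above 100 CPM and every DOX library under 50 CPM. The lipid transporter family member ABCA13, the lysyl oxidase LOXL4, the GPI-anchored protein LY6D and the focal adhesion protein TNS1 completed the leading falls, with log2 fold changes of -2.72, -2.51, -2.37 and -2.35. LY6D lies over an antisense exon for 14.4% of its exon length, and the sources used here do not say whether reads were counted by strand.

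FOSL1 had the largest rise of the leading genes. It was at 52.3, 50.4 and 43.3 CPM with vehicle and at 196, 202 and 224 CPM with DOX (log2 fold change 2.09, standard error 0.077, adjusted p = 1.3e-08). HMGA2, a chromatin protein of fetal tissues that binds AT-rich DNA, went from 88.1, 88.0 and 87.0 CPM to 326, 334 and 354 CPM, a log2 fold change of 1.95 (standard error 0.041, adjusted p = 1.6e-17). NT5E, the ecto-enzyme CD73 that makes adenosine, went from 90.7, 85.9 and 80.9 CPM to 297, 278 and 313 CPM, a log2 fold change of 1.79 (standard error 0.049, adjusted p = 4.1e-15). For these abundant genes the lowest DOX library lay more than 3 times above the highest vehicle library. CCN1, a matricellular protein, rose from 44.3 ± 2.95 CPM (SD, n = 3) to 164 ± 3.24 CPM (SD, n = 3), and CPA4 from 10.9 ± 1.16 to 44.02 ± 0.738 CPM. TGM2, the tissue transglutaminase, was at 10.5, 11.2 and 10.99 CPM with vehicle and at 41.7, 40.96 and 40.2 CPM with DOX. The log2 fold changes of CCN1, CPA4 and TGM2 were 1.89, 2.02 and 1.91. The other leading rises were SEMA7A (2.05), a membrane-anchored semaphorin, the proteoglycan VCAN (1.83), ADAMTS1 (1.82), the MAP kinase phosphatase DUSP4 (1.75), SCEL (1.73), which encodes a cornified envelope protein, and the receptor ROR1 (1.69).

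**Figure D2:**
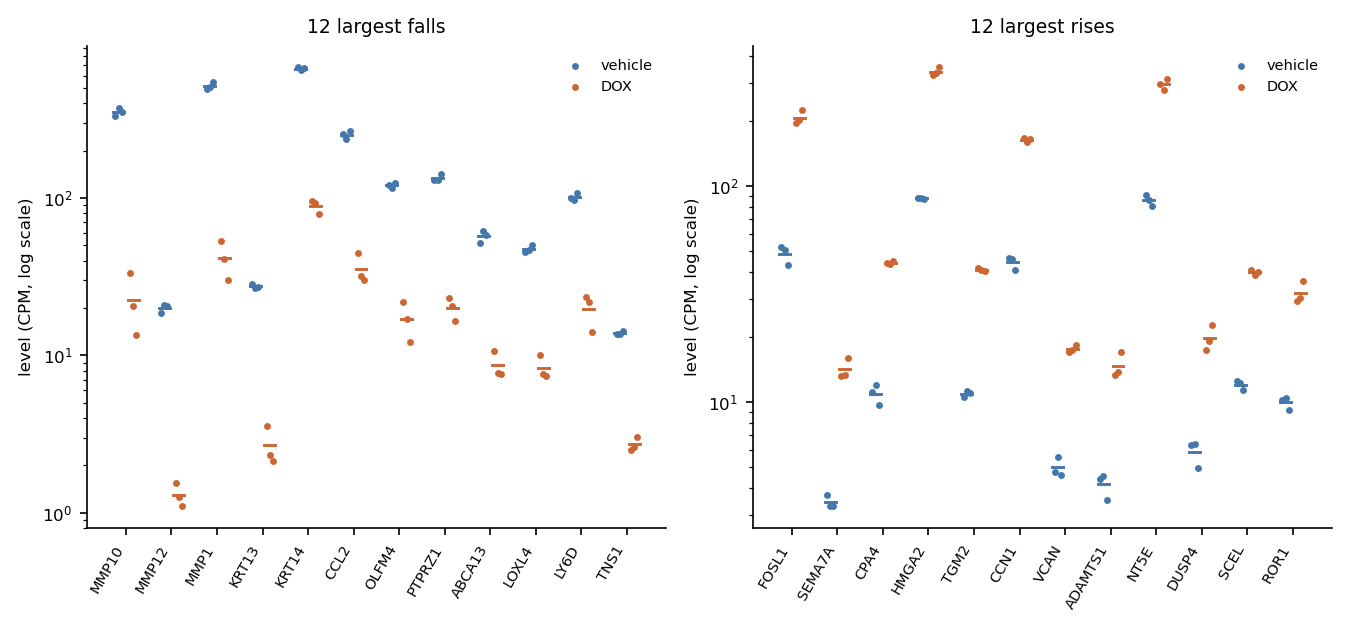
Level of each leading gene in each library (CPM, log scale), with the 3 vehicle libraries in blue and the 3 DOX libraries in orange, and a short line at each group's mean. The groups are apart in every gene because the choice of genes required it, and in 11 of the 12 falls the first DOX library is the highest of the DOX group.

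The largest rises by fold were in genes under the level rule for leading genes, and were chosen after their values were seen. MARCHF4, a membrane E3 ubiquitin ligase, was read 2, 6 and 8 times with vehicle but 270, 251 and 355 times with DOX (0.05002 and 2.85 mean CPM, log2 fold change 5.85, standard error 0.287, adjusted p = 2.1e-12). NTNG1, a netrin of the membrane, had 47, 38 and 28 counts and 447, 369 and 517 counts (log2 fold change 3.68, adjusted p = 1.3e-12). An estimated 2.45 to 3.33 counts came from 1 molecule in the CAL27 libraries, so these raw counts stand for fewer molecules. MYPN, a sarcomere protein, NAV3, which guides microtubules, and the long noncoding RNA MIR100HG rose with log2 fold changes of 2.65, 2.24 and 2.51. On the other side, CLDN8, a tight junction claudin, fell from 3.69 to 0.219 mean CPM (log2 fold change -4.09) and the proteoglycan BGN from 2.81 to 0.326 mean CPM (log2 fold change -3.13). Low levels carry more error, and 48.4% of the genes called lower and 46.4% of those called higher were under 1 CPM, where the median standard error of a log2 fold change was 0.399 against 0.0409 at 64 CPM or more.

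Basal keratins were abundant with vehicle and lower with DOX. KRT14 was at 1050, 1013 and 1092 TPM with vehicle and at 147, 150 and 123 TPM with DOX (log2 fold change -2.90, standard error 0.060, adjusted p = 2.6e-14). KRT5, its partner in basal cells, was at 3512, 3461 and 3595 TPM and at 1688, 1731 and 1622 TPM (log2 fold change -1.05, adjusted p = 6.9e-14). KRT15, a type I keratin of basal cells, fell from 579 to 118 mean TPM (log2 fold change -2.28) and KRT17, a keratin of wounded epithelium, from 568 to 171 mean TPM (log2 fold change -1.72). Summed over KRT5, KRT6A, KRT14, KRT15, KRT16 and KRT17, the level fell from 6104 ± 156 TPM (SD, n = 3) to 2268 ± 109 TPM (SD, n = 3). KRT14 changed by a larger fold than KRT5, with mean levels of 1052 TPM for KRT14 beside 3523 TPM for KRT5 with vehicle, and 140 TPM beside 1681 TPM with DOX.

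Keratins of simple epithelia went the other way. KRT8 was at 118, 125 and 117 TPM with vehicle and at 323, 337 and 313 TPM with DOX (log2 fold change 1.45, standard error 0.043, adjusted p = 1.9e-15). KRT18, its partner, rose from 90.5 to 216 mean CPM (log2 fold change 1.26). Summed over KRT7, KRT8, KRT18 and KRT19, the level rose 2.52-fold, from 228 ± 7.89 TPM (SD, n = 3) to 576 ± 25.7 TPM (SD, n = 3), which stayed below the summed basal keratins. KRT19 went against its group and fell at a low level, from 1.38 to 0.401 mean CPM. KRT8 and KRT18 have many pseudogene copies and the keratins of 1 cluster share sequence, so counts that fall between copies are uncertain, and KRT18 and KRT13 overlap antisense exons over 17.1% and 16.3% of their exon length.

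**Figure D3:**
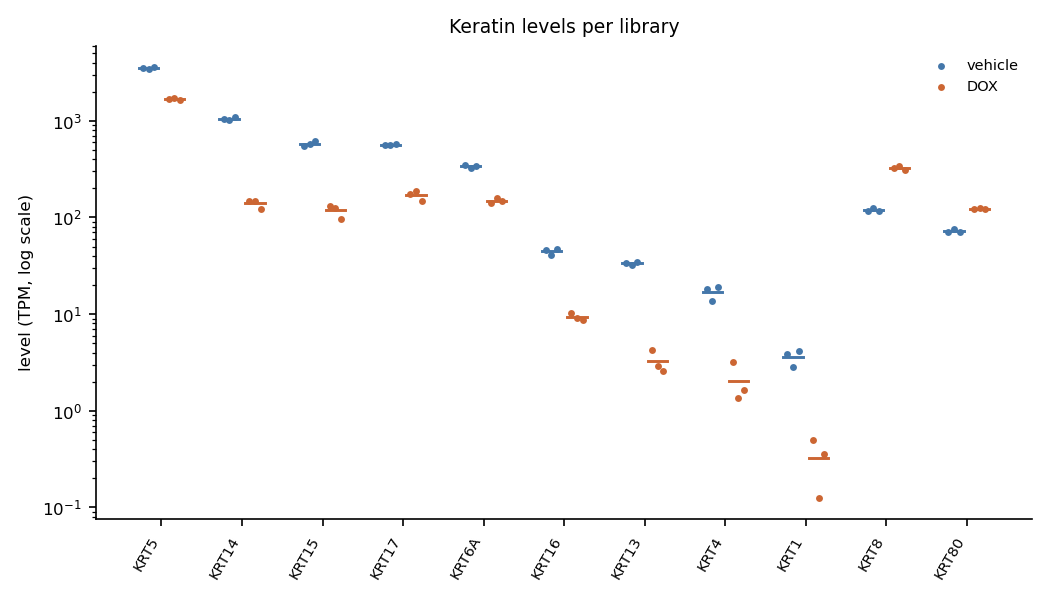
Level of 11 keratin genes in each library (TPM, log scale), with vehicle libraries in blue, DOX libraries in orange and lines at the group means. The basal, wound and suprabasal keratins from KRT5 to KRT1 are lower in every DOX library, and KRT8 and KRT80 are higher in every one.

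The wider lists of squamous genes followed the keratins. Of 19 basal and wound keratinocyte genes, 18 fell, 13 were called lower and none rose, with a median log2 fold change of -1.05. Beside the keratins they included PKP1, a desmosome plaque protein (219 to 69.0 mean CPM, log2 fold change -1.67), the desmosomal cadherin DSC3 (-1.04) and the gap junction gene GJB6 (-1.73). Of 41 tested genes of suprabasal differentiation and cornification, 20 fell, 4 rose and 14 were called lower, with a median of -0.48. KRT13 and KRT4, keratins of mucosal suprabasal cells, fell from 27.4 to 2.67 and from 13.7 to 1.67 mean CPM, with log2 fold changes of -3.37 and -3.04. KRT1, the suprabasal keratin of skin, was read 350, 196 and 304 times with vehicle but 34, 8 and 30 times with DOX. The epidermal transglutaminase TGM1 fell (log2 fold change -2.03), as did the serpins SERPINB3, SERPINB4 and SERPINB13. KRT80, a keratin of cells that start to differentiate, and ALOXE3, a lipoxygenase of the skin barrier, were the largest of the 4 rises (0.78 and 0.76). The other 17 did not pass the test, and SCEL, given above as a leading rise, also encodes a protein of the cornified envelope. Kallikrein-related peptidases were split, with KLK1, KLK11 and KLK13 called lower, KLK6 called higher (3.41 to 8.01 mean CPM, log2 fold change 1.23) and KLK7 rising by 0.71 on the log2 scale.

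Of 36 genes of simple and secretory epithelium, 17 fell and 12 rose. Called lower were 12, among them MUC4, a transmembrane mucin (5.42 to 0.799 mean CPM, log2 fold change -2.77), the aldehyde dehydrogenase ALDH3A1 (10.8 to 1.80 mean CPM, -2.59), PIGR, which carries IgA across epithelia (-1.76), and CLDN1. Called higher were 4, which were KRT8, KRT18 and the adhesion molecules CEACAM5 (1.11 to 3.15 mean CPM, log2 fold change 1.49) and CEACAM6 (1.42 to 3.43 mean CPM, 1.26). The list thus held calls in both directions. Of 32 mesenchymal genes, 13 fell and 9 rose, with a median of -0.05. WNT5A, a secreted ligand (-1.37), LOXL4, COL6A2 (-1.33) and LUM (-1.97) were called lower, and THBS1 was called higher.

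The lists of ERK-induced genes, of YAP targets and of ribosome biogenesis genes each held more rises than falls. Of 21 ERK-induced transcripts and feedback inhibitors, 16 rose and 2 fell (EPHA4 and EGR2), with a median log2 fold change of 0.52. SPRY4, an inhibitor of receptor signalling, was at 2.10, 1.76 and 2.11 CPM with vehicle and at 7.20, 7.78 and 9.72 CPM with DOX (log2 fold change 2.05, standard error 0.124, adjusted p = 6.4e-11). The others called higher were DUSP4 (5.87 to 19.8 mean CPM), DUSP5 (19.3 to 44.1), SPRY1 (5.60 to 13.7), the factor ETV5 (23.4 to 54.1) and cyclin D1, CCND1 (326 to 857). SPRY2 and EGR3 did not pass the test, with log2 fold changes of -0.03 and -0.16. Of 12 AP-1 subunits, 6 rose and 3 fell. JUN rose from 7.52 to 12.9 mean CPM (log2 fold change 0.78) while FOSL2 fell from 145 to 113 (-0.36) and JUND from 42.2 to 33.1 (-0.35). Of 10 EGF family ligands, 5 rose and 2 fell. Amphiregulin, AREG, rose from 9.86 ± 0.588 to 21.7 ± 1.83 CPM (SD, n = 3) and epiregulin, EREG, from 37.6 ± 2.18 to 73.3 ± 6.37 CPM (SD, n = 3), with log2 fold changes of 1.13 and 0.96. Betacellulin, BTC, and EGF itself, both at under 4 CPM, fell by 1.06 and 0.60 on the log2 scale.

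Of 24 target genes of YAP and TEAD, which respond to cell shape and density, 16 rose and 4 fell, with a median log2 fold change of 0.43. Called higher were CCN1, NT5E, F3, ANKRD1 (1.55 to 4.79 mean CPM, log2 fold change 1.62) and CCN2 (5.28 to 11.1 mean CPM, 1.07), and none was called lower. IGFBP3, which binds insulin-like growth factors, was the largest of the 4 falls, from 1364 to 759 mean CPM (log2 fold change -0.84). Of 25 genes of the actin cytoskeleton, 13 rose and 4 fell, within 1 log2 unit throughout. Integrins, laminins and hemidesmosome genes were split, with 10 rises and 9 falls among 21 and no call. ITGB5 and the linker PLEC rose (log2 fold changes 0.87 and 0.71), while ITGB6 and ITGB8, which activate TGF-beta, fell (-0.70 and -0.60). Of 35 semaphorins, plexins and members of the ephrin system, 19 fell and 9 rose. EPHB3 and the ephrins EFNB1 and EFNA1 were called lower, while SEMA7A was called higher and the co-receptor NRP1 rose by 0.85.

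**Figure D4:**
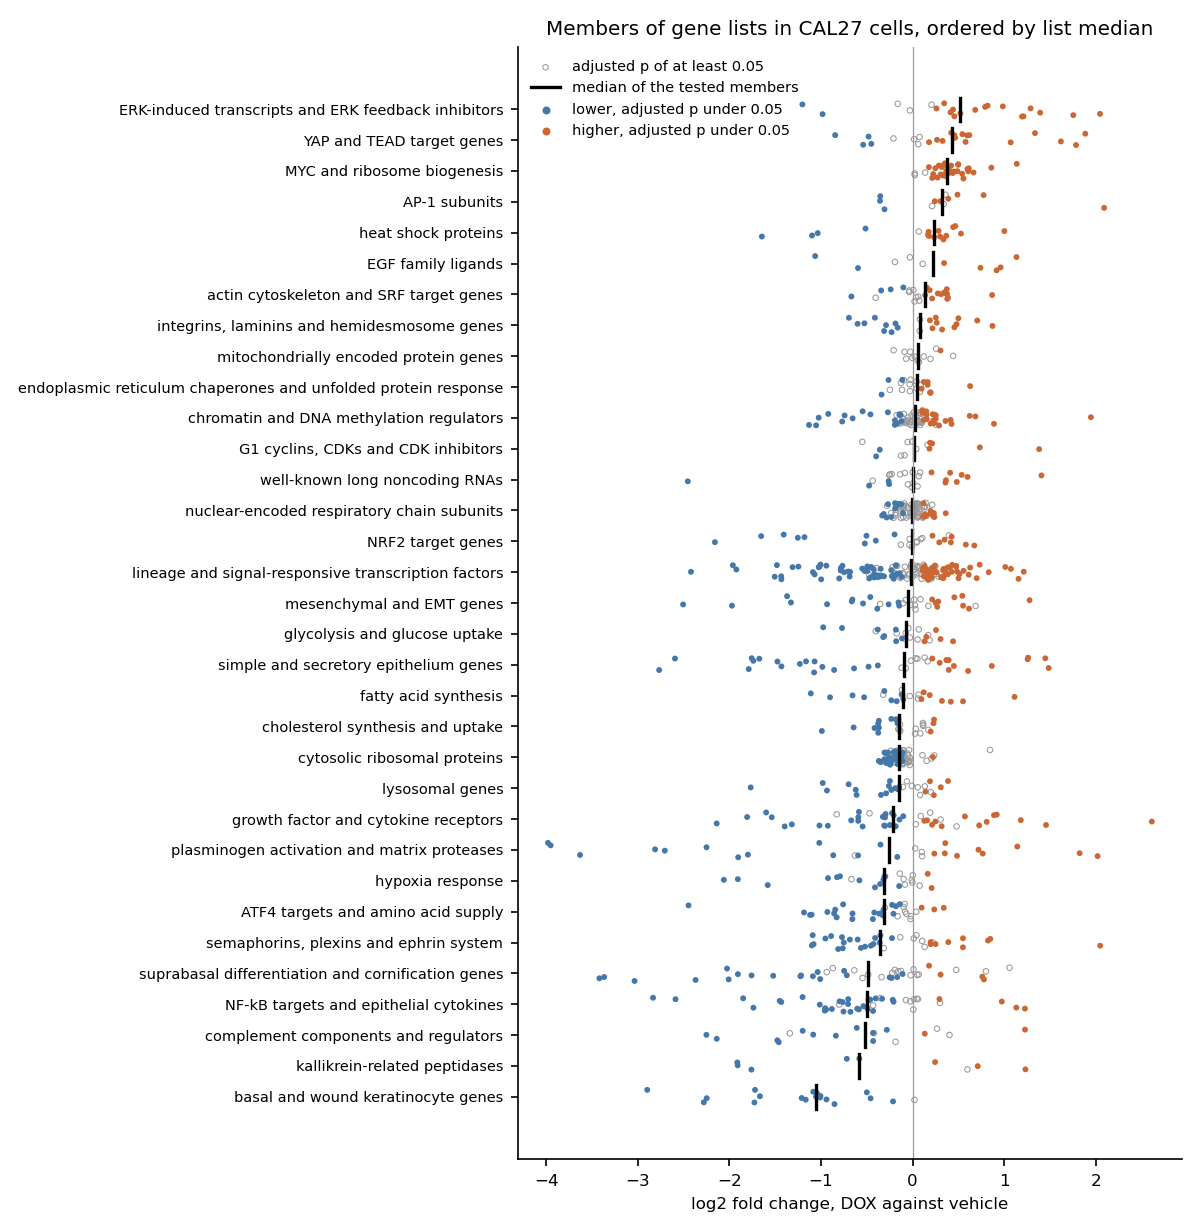
Log2 fold change of DOX against vehicle of each tested member (points) of the gene lists shown (rows, ordered by the list's median, black bar). The interferon, NOTCH and cell cycle lists, the cell type markers and some other lists are not shown. Filled points have an adjusted p under 0.05, blue lower and orange higher, and open points do not. The lists run from basal keratinocyte genes at a median of -1.05 to ERK-induced genes at 0.52, and nearly all lists hold members of both directions.

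Genes of growth rose by small amounts. Of 38 genes of MYC and ribosome biogenesis, 35 rose and none fell, with a median log2 fold change of 0.38. All but 1 of the rises were under 2-fold. ODC1, the first enzyme of polyamine synthesis, was at 62.1, 59.6 and 57.1 CPM with vehicle and at 133, 132 and 128 CPM with DOX (log2 fold change 1.14, standard error 0.042, adjusted p = 2.7e-14). RRS1, an assembly factor of the large subunit, rose from 11.2 to 17.8 mean CPM (log2 fold change 0.67). The cytosolic ribosomal protein genes did not follow, with 37 of 79 lower and 1, RPL26, higher, and a median of -0.14. RPL13A and RPS18 had the largest falls, by 0.37 and 0.35 on the log2 scale, and their many pseudogenes make the counts of these genes uncertain. CCND2 and CCND3, the other D cyclins, rose from 14.9 to 38.8 and from 21.8 to 36.3 mean CPM (log2 fold changes 1.38 and 0.73), and the pocket proteins RBL1 and RBL2 fell by 0.40 and 0.36. Of the 147 cell cycle genes set aside, 107 rose and 9 fell. Heat shock genes rose in 12 of 17 and fell in 4, with HSPH1 at 0.53. HSPB8, at 1.00, was the 1 called higher, and 3 were called lower. HSPB1, a small heat shock protein, fell from 651 to 301 mean TPM (log2 fold change -1.10). HSPA1L and CRYAB, both under 1 CPM, were also called lower (-1.65 and -1.04).

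Cytokine and complement genes were mostly lower. Of 45 NF-kB targets and epithelial cytokines, 31 fell and 4 rose, with a median of -0.50. The neutrophil chemokines CXCL1 and CXCL8 fell from 34.5 to 10.4 and from 43.4 to 15.9 mean CPM, with log2 fold changes of -1.74 and -1.45, and CCL20, which draws lymphocytes, fell by 1.85. IL6, a cytokine of the acute phase, and LIF of the same family rose, from 2.91 to 6.38 and from 9.86 to 19.4 mean CPM (log2 fold changes 1.13 and 0.97), and IL11 was called higher at 0.219 to 0.510 mean CPM. Of 18 complement genes, 11 fell and 2 rose. C3, the central component, was at 436, 466 and 471 CPM with vehicle and at 194, 160 and 140 CPM with DOX (log2 fold change -1.48, standard error 0.136, adjusted p = 6.8e-04). CD55, a cell surface inhibitor of complement, rose from 35.8 ± 2.33 to 83.9 ± 2.46 CPM (SD, n = 3), a log2 fold change of 1.23, and SERPING1, the inhibitor of C1, fell by 2.14. For comparison, 167 of 201 interferon genes fell and 10 rose, with a median of -0.85, and some of the cytokine and complement genes respond to interferon as well.

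Metabolic and stress lists had smaller medians than the cytokine and complement lists, at most -0.31 for hypoxia genes and for ATF4 targets, though single members were called. Of 23 hypoxia response genes, 13 fell and 2 rose, with NDRG1 at 56.3, 55.6 and 54.8 CPM with vehicle and 17.8, 14.2 and 12.6 CPM with DOX (log2 fold change -1.91, standard error 0.115, adjusted p = 5.4e-06). The carbonic anhydrases CA9 and CA12 were also called lower. Of 32 targets of ATF4 and genes of amino acid supply, 20 fell and 3 rose, and the glycine transporter SLC6A9, the lipoprotein receptor VLDLR, NUPR1 and PCK2 were called lower. Of 23 glycolysis genes, 8 fell and 5 rose, and PGAM1 fell by 0.98. Of 25 cholesterol genes, 11 fell and 3 rose, and none was called. In fatty acid synthesis the factor SREBF1 fell from 245 to 114 mean CPM (log2 fold change -1.11) and the desaturase SCD by 0.90, while the elongase ELOVL6 rose from 27.6 to 59.6 mean CPM (1.11). NRF2 target genes were split, with 9 lower and 7 higher of 25. The 5 that were called, AKR1C1, AKR1C2, AKR1C3, AKR1B10 and GPX2, were lower and at under 7 CPM, and the AKR1C genes share near-identical sequence. Lysosomal genes fell in 15 of 27, led by the protease CTSS (-1.77). Genes of the respiratory chain in the nucleus had 12 falls and 12 rises among 78, and of genes of the unfolded protein response 3 fell and 6 rose among 21.

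Among 136 tested transcription factor genes, 51 fell and 47 rose, and 14 were called lower and 4 higher. Over all genes tested, 21.8% fell and 22.6% rose, and 5.11% were called lower and 1.31% higher. The 14 factor genes called lower held factors of the squamous lineage. TP63 was at 958, 911 and 942 CPM with vehicle and at 470, 480 and 450 CPM with DOX (log2 fold change -1.01, standard error 0.040, adjusted p = 9.4e-14). TP73, its relative, went from 74.2, 71.7 and 72.4 CPM to 27.6, 25.9 and 27.3 CPM (log2 fold change -1.43, standard error 0.045, adjusted p = 3.5e-15). ZNF750, a factor of epidermal differentiation downstream of TP63, went from 13.1, 13.4 and 13.2 CPM to 3.97, 3.26 and 2.96 CPM (log2 fold change -1.96, standard error 0.097, adjusted p = 2.3e-12). TP63 thus lay just past the 2-fold threshold, while TP73 and ZNF750 lay well past it. SOX2, a stem cell factor amplified in many squamous carcinomas, fell from 30.7 to 12.4 mean CPM (log2 fold change -1.31), the forkhead factor FOXQ1 from 70.6 to 24.9 (-1.51), KLF5 from 383 to 180 (-1.09) and ELF3 from 56.4 to 26.9 (-1.07). ID1 and TCF7L1 were called lower at -1.02 and -1.02, and SOX21, FOXN1 and SPDEF at under 2 CPM. The 4 called higher were PPARG, the nuclear receptor of fat and urothelium (5.57 to 12.9 mean CPM, log2 fold change 1.21), the ETS factor ETV1 (4.08 to 9.09, 1.16), KLF2 (1.09 to 2.30, 1.07) and the endoderm factor FOXA2 (3.27 to 6.61, 1.01).

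**Figure D5:**
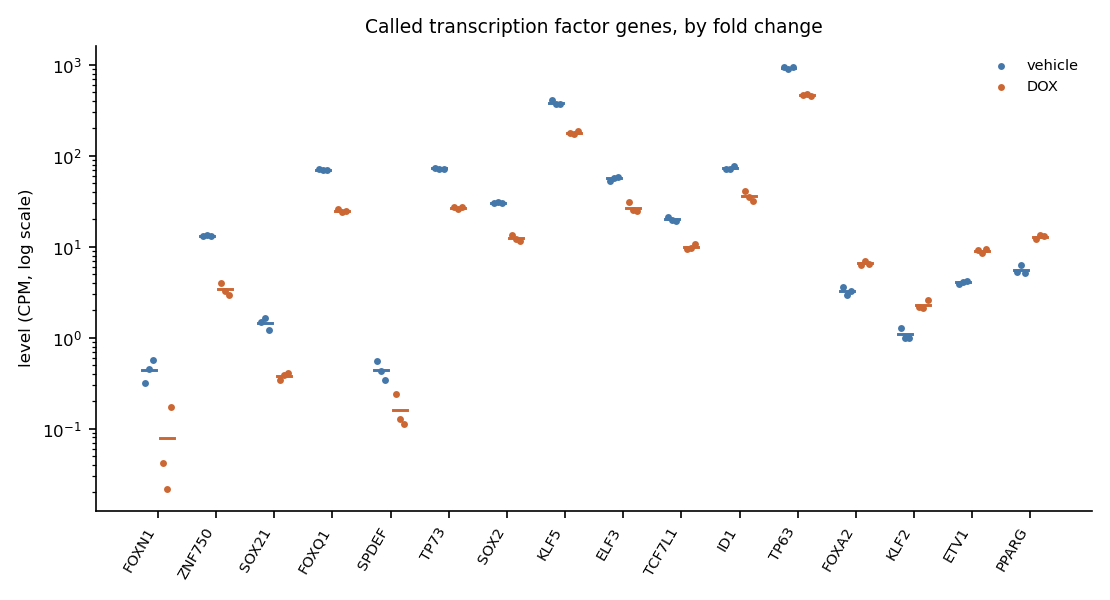
Level of 16 of the 18 called transcription factor genes in each library (CPM, log scale), ordered by log2 fold change, with vehicle libraries in blue, DOX libraries in orange and lines at the group means. The 12 genes from FOXN1 to TP63 are lower in every DOX library and the 4 from FOXA2 to PPARG higher in every one.

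Beside 22.6% and 21.8% of all genes tested, 22 of 70 chromatin and DNA methylation regulators rose and 17 fell. HMGA2 was the only one called higher, and the methyltransferase DNMT3A (13.9 to 6.82 mean CPM, log2 fold change -1.03), the BAF subunit SMARCD3 (-1.13) and the deacetylase HDAC11 (-1.05) were called lower. HMGA1, of the same family as HMGA2, was at 1465, 1404 and 1341 TPM with vehicle and at 2155, 2098 and 2458 TPM with DOX (log2 fold change 0.69, standard error 0.075, adjusted p = 4.3e-05). Of the oncofetal RNA-binding proteins, IGF2BP1 and IGF2BP2 rose by 0.39 and 0.47, and IGF2BP3 fell by 0.20. Among 45 growth factor and cytokine receptors, 25 fell and 13 rose. KIT, the receptor of stem cell factor, was at 15.8, 15.4 and 16.1 CPM with vehicle and at 3.52, 3.54 and 3.66 CPM with DOX (log2 fold change -2.14, standard error 0.077, adjusted p = 2.6e-14). IL20RB (24.3 to 8.03 mean CPM, log2 fold change -1.60), FGFR3 (46.1 to 18.5, -1.32) and NGFR (14.96 to 5.70, -1.40) were also called lower. IL31RA (4.95 to 13.5, 1.46) was called higher, as were FGFR1 and IL1RL1 at under 2 CPM, and TNFRSF12A, the receptor of TWEAK, rose by 0.92. Of 25 well-known long noncoding RNAs, 4 fell and 8 rose. H19, an imprinted RNA, fell from 13.2 ± 1.03 to 2.42 ± 0.768 CPM (SD, n = 3), a log2 fold change of -2.45, and MIR31HG, the host of a microRNA, rose from 4.22 ± 0.731 to 11.2 ± 0.540 CPM (SD, n = 3), a log2 fold change of 1.41.

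The most abundant transcripts often passed the test, mostly with changes under 2-fold. The 200 genes with the highest mean TPM held 48.7% of all TPM, and 57 of them fell and 54 rose, while 6 were called lower and 2 higher, beside the 69 and 17 of 3642 genes at 64 CPM or more. Of the 10 highest over the 6 libraries, 8 were mitochondrially encoded and none of these passed the test. Their log2 fold changes ran from -0.21 for MT-CO1 to 0.44 for MT-ND2. Of all 13 mitochondrially encoded genes, MT-ND3 rose (log2 fold change 0.30, adjusted p = 0.0092). The other 2 of the 10 were RN7SL1, the RNA of the signal recognition particle, which did not pass, and RN7SKP80, listed as a pseudogene of the 7SK RNA, which fell by 0.33. Both are small RNAs with many copies that poly(A) selection should largely remove, so their counts are uncertain. The 200 also held other small RNAs, such as RN7SL3 (4901 mean TPM) and SNORA73B (767), and histone genes such as H3C3 (1888). How far the libraries were selected for poly(A) RNA was not tested.

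Among these 200, the largest falls were KRT14, MMP13, CLDN1, IFITM3 and HSPB1. CLDN1, a claudin that seals tight junctions, was more abundant with vehicle than KRT5, at 4255, 4023 and 4497 TPM, and was at 1608, 1523 and 1415 TPM with DOX (log2 fold change -1.48, standard error 0.050, adjusted p = 1.3e-14). IFITM3, an interferon-induced membrane protein, fell from 779 to 353 mean TPM. The largest rises were F3, THBS1, EZR, HMGA1 and ANXA1. F3, tissue factor, which starts coagulation, was at 740, 751 and 683 TPM with vehicle and at 1696, 1882 and 1870 TPM with DOX (log2 fold change 1.34, standard error 0.053, adjusted p = 1.2e-12). THBS1, a matrix glycoprotein that binds latent TGF-beta, was at 738, 743 and 696 TPM and at 1652, 1792 and 1789 TPM (log2 fold change 1.28, standard error 0.049, adjusted p = 6.8e-14). EZR, which links the membrane to actin, and ANXA1, an annexin, rose by 0.93 and 0.65. On the TPM scale F3 was below KRT14 in every vehicle library and above KRT5 in every DOX library.

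Called genes also stood side by side on the chromosomes. Runs of at least 3 neighbouring tested protein-coding genes that were all called in the same direction numbered 33, and all 33 were lower. The interferon, NOTCH and cell cycle genes were not set aside here, and the 33 included interferon-induced clusters such as those of the GBP, IFIT and OAS families. How many runs the 5.11% of genes called lower would give without regard to position was not worked out. The longest run was the type II keratin cluster on chr12:52446651-52814116, with KRT6B, KRT6C, KRT6A, KRT5, KRT74, KRT1, KRT3 and KRT4 and log2 fold changes from -3.42 to -1.05. The type I cluster on chr17:41500981-41624842 held KRT13, KRT15, KRT19, KRT9, KRT14, KRT16 and KRT17, from -3.37 to -1.72. The protease cluster on chr11:102520508-102955732 held MMP7, MMP10, MMP1, MMP3, MMP12 and MMP13, from -3.98 to -2.25. The shorter runs included the oxidases and their partners DUOX2, DUOXA2, DUOXA1 and DUOX1 on chr15:45092650-45165576 (-2.39 to -1.21), the acute phase genes SAA4, SAA2 and SAA1 on chr11:18231355-18269977 (-1.99 to -1.51), and CYP4B1, CYP4X1 and CYP4Z1 on chr1:46757838-47118318 (-1.67 to -1.47). F2R and F2RL2, receptors of thrombin, lay in a run with IQGAP2 on chr5:76403285-76735770, with F2R at 272 to 106 mean CPM (log2 fold change -1.36). KRT8 lies at the end of the type II keratin cluster, past the run, and went against it. Neighbours of a family can share reads, so members of a run are not independent measurements, and more genes were called lower than higher to begin with.

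The response of the leading genes was set against that of HSC3 cells with a term for the difference between the lines in their DOX effect, fitted over 12 libraries, and 20.6% of 20694 genes had an adjusted p under 0.05 for this term. Of the 24 leading genes, 18 differed, and the values are given in the closing section. The 24 were chosen for large changes in the same CAL27 libraries that the term uses. The choice itself thus favours smaller changes in HSC3 cells, and the 18 cannot be set against the 20.6%. CCN1, SCEL and ADAMTS1 did not pass this test, with differences in log2 fold change (HSC3 minus CAL27) of 0.14, -0.23 and -0.47, and all rose in HSC3 cells as well, with log2 fold changes of 2.03, 1.498 and 1.36 (adjusted p = 2.0e-07, 1.5e-06 and 7.5e-06). PTPRZ1 did not pass either, at low HSC3 levels. OLFM4 had no count in any HSC3 library, and LY6D had 22 counts in all, so that neither can be compared. In lists, the basal keratinocyte genes fell in HSC3 cells too, 17 of 19 with a median of -0.98, whereas the 147 cell cycle genes had 93 falls and 1 rise there and the 10 EGF ligands had 7 falls and no rise among the 9 tested. These list counts were not tested against each other.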

How the data were processed

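RNA was taken from triplicate cultures of each group. The authors deposited raw counts per gene symbol for each library, and the submitters' processing notes name FastQC 0.11.9, STAR 2.7.9a, Subread 2.0.1 with featureCounts, and GRCh38. The strand and duplicate settings of the counting are not given in the sources used here. Among the called genes named above, antisense exons covered, for example, 35.7% of the exon length of CA9, 28.4% of SMARCD3 and 20.5% of KLK6. p-values measure only the spread between these libraries, which may be technical.

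Symbols were matched to GENCODE on GRCh38 (38934 by current and 377 by older symbol, 57 unmatched), which gave coordinates and exon length for TPM. Counts were filtered with filterByExpr, normalized by TMM and tested with edgeR 4.0.16 (robust quasi-likelihood, R 4.3.3) over the 6 CAL27 libraries. The standard error of a log2 change was taken as its size over the root of the F statistic. On simulated counts for the same comparison (18889 genes, 200 changed), 100% of changed genes were recovered and 1 unchanged gene was called. The changed genes were all above 1 CPM and moved by 1.5 on the log2 scale, equally often up and down, with dispersions taken from these data. The recovery thus does not cover genes under 1 CPM, smaller changes or an uneven response. DESeq2 1.42.0 and the other alternatives are in the closing section. Library totals were 92866845 to 126328662, mitochondrially encoded genes held 6.39% to 8.23% of the counts, and libraries of a group had equal counts at 0.946% to 1.54% of tested genes.

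Named were MUC1, the 12 largest rises and falls outside the 3 lists, the 2 largest rises and falls of each list at log2 CPM of 1 or more, called members of regulator lists, the most abundant genes and genes in runs. Other genes, 7 of them for the size of their change, were named after their values were seen. Results for some genes are not reported here. Members, lists and rule were chosen with earlier results of these data known.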

Additional observations from a re-analysis of the deposited data

Results flagged for a closer look

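Of the 24 leading genes of CAL27 cells, 18 had a DOX effect that differed between the lines by the test of the difference itself (edgeR quasi-likelihood test over 12 libraries, adjusted p under 0.05, difference given as the HSC3 minus the CAL27 log2 fold change). Among the falls, the difference was 1.26 for MMP10, 3.52 for MMP12, 2.00 for MMP1, 2.25 for KRT13, 1.02 for KRT14, 2.67 for CCL2, 1.00 for ABCA13 and 3.05 for LOXL4, so that these genes fell less or not at all in HSC3 cells, and -1.89 for TNS1, which fell more there. KRT14, MMP1, MMP10 and ABCA13 fell in HSC3 cells as well, with log2 fold changes of -1.88, -1.63, -2.71 and -1.71.

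Every leading rise that differed was smaller in HSC3 cells or went the other way, a direction that choosing genes by their CAL27 change favours. The difference was -2.38 for FOSL1 (standard error 0.107, adjusted p = 5.2e-09), -1.68 for SEMA7A, -1.20 for CPA4, -1.38 for HMGA2, -0.43 for TGM2, -1.73 for NT5E, -1.46 for DUSP4 and -0.71 for ROR1. Most of these genes rose in HSC3 cells too, with log2 fold changes of 1.48 for TGM2, 0.97 for ROR1, 0.82 for CPA4, 0.56 for HMGA2, 0.37 for SEMA7A and 0.29 for DUSP4. NT5E did not pass the test there (0.06). FOSL1 fell in HSC3 cells, with a log2 fold change of -0.29 (adjusted p = 0.0094). The value of -6.46 for VCAN rests on 8 counts in 1 HSC3 vehicle library and 0 in the other HSC3 libraries, and is no measure of size. HSC3 levels were also low for CCL2, with 6 to 12 counts in the vehicle libraries, and for KRT13, MMP12 and LOXL4, with at most 65, 70 and 144 counts in any library.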

How the results depend on the processing

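No paired analysis was possible because the CAL27 DOX columns carry none of the labels' replicate numbers. The 984 CAL27 genes called lower and 252 CAL27 genes called higher became 569 and 130 with a minimum of 1 CPM in 3 libraries, where fewer genes were tested, 1848 and 714 with a fold threshold of 1.5, and 568 lower in 1 fit over the 12 libraries, where the cause was not tested. Leaving out 1 CAL27 library gave 928 to 1079 lower and 227 to 297 higher calls, and DESeq2 gave 955 and 245. The other count settings stayed within 1.5 times. Scalings moved the median of all genes by less than 0.1 on the log2 scale. Of the list medians, 440 values stayed within the spread between replicates and 80, in 26 lists, did not. The largest moves were the median of complement genes, -0.86 with a minimum of 1 CPM, and that of simple and secretory epithelium, -0.40 without the first DOX library. The median of plasminogen activation and matrix proteases was -0.09 with a minimum of 1 CPM. Lists whose median changed sign had medians within 0.1 of 0. Of the values of named genes, 3788 kept direction and side of the threshold, 162 of 95 genes lost significance, 78 of them under a test against a 1.5-fold change and 40 in the fit over 12 libraries, and 8 of 4 genes reversed. The reversals were in abundant transcripts that did not pass the test, with ranges on leaving out 1 library of -0.0767 to 0.0893 for the MT-CO3 log2 fold change, -0.222 to 0.00877 for the MT-ND4 log2 fold change, -0.16 to 0.12 for the RN7SL1 log2 fold change and -0.136 to 0.0712 for the MT-CYB log2 fold change. The PTPRZ1 interaction, the difference between lines, ran from -1.64 to 0.0629 on leaving out 1 library, the latter without the third HSC3 DOX library. With counts divided by the estimated counts per molecule of each library (2.45 to 3.33 in CAL27 cells), the differences for MMP10, KRT13, CCL2, ABCA13 and VCAN lost significance. So did MMP10 without the second CAL27 DOX library (1.22) or the first HSC3 DOX library (1.27), CCL2 without the first (1.95) or second (2.57) HSC3 DOX library, and the VCAN interaction without the first HSC3 vehicle library (-1.82). The differences for CCN1 (0.25) and SCEL (-0.33) without the first HSC3 DOX library, and for ADAMTS1 without the third HSC3 vehicle library (-0.58) or with counts per molecule (-0.47), passed the test.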
